A study of Mus musculus with 6 samples.

Results

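Transcription factors of the bZIP, EGR, KLF and HSF families were followed in NIT-1 cells, a mouse pancreatic beta cell line, after exposure to cadmium. They were chosen by gene symbol, so that Ddit3, Nfil3 and the genes of the Atf (without Atf3), Fos, Jun, Maf, Cebp, Creb, Crem, Nfe2, Bach, Batf, Egr, Klf and Hsf names were taken and pseudogenes were not. The rule found 40 of the 18572 genes measured. The RefSeq annotation held 82 symbols that fit it. Of the other 42, Junb and Creb5 lay on clusters that carry a second symbol, and the rest, among them Ddit3, Atf4, Fos, Egr1, Hsf1, Mafa and Nfil3, were not analysed here. The genes measured lay almost all on chromosomes 1 to 9, X and Y and on a part of chromosome 10. Of the 40, 37 encode transcription factors of the named families. Atf7ip encodes a chromatin protein that fits the rule by name, and Junos and Bach2os are antisense RNA genes.

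The cadmium group was treated with 4 μmol/L CdSO4 for 24 h and the control group received culture medium without it. Both groups were plated 24 h before and grown in the same serum-containing medium, and no genetic change beyond that of the cell line is named. Each group had 3 arrays of biotin-labelled total RNA, described as biological replicates. Whether the 6 cultures were started on separate days is not said, and a p-value here reflects their spread alone. NIT-1 was derived from an insulinoma of transgenic mice that carry a viral large T antigen under an insulin promoter, and other cells of an islet are not part of the model.

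A bZIP factor grips DNA with a basic region and pairs with a partner through a leucine zipper, and the choice of partner sets which DNA element it binds. JUN and FOS proteins form AP-1, the small MAF proteins pair with NRF2 or BACH proteins at antioxidant response elements, and CREB proteins bind cAMP response elements. EGR and KLF proteins bind GC-rich DNA through zinc fingers, and heat shock factors bind heat shock elements as trimers. Many of these proteins are switched by phosphorylation, cleavage or altered stability, so an RNA level does not report the activity of the factor. In beta cells CREB is known for supporting survival and insulin gene expression.

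Values are log2 signals, 1 per gene and array, and a change is the cadmium mean minus the control mean. Levels of different genes are not set against each other. Array medians were between 3.39 and 3.40 on cadmium arrays and between 3.34 and 3.35 on control arrays, a difference of 0.049 (two-sided exact permutation test, p = 0.1, which is the lowest possible for 3 against 3). The first principal component (61.5% of the variance) separated the groups, and cadmium replicate 1 and control replicate 3 differed from the remaining 4 arrays along the second (15.6%). A background bound of 6.18 was set from the negative control probes, averaging over arrays the value that 95% of them did not exceed, and a group mean below it is called dim. Both means were above the bound for 10 of the 40 genes and dim for 28, against 1970 and 16142 of all 18572 genes. Of those 10 genes 2 were called, Cebpb and Creb1, where 25.8% of all genes with both means above the bound were called. All 7 beta cell markers measured were dim, with Ins2 at 5.29 ± 0.04 in cadmium arrays and 5.27 ± 0.10 in control arrays (SD, n = 3 each), and 0 of the 7 were called. Gcg and Ghrl, of other islet cells, and the exocrine genes Cpa1 and Prss1 were dim in both groups as well, and none of these 4 was called. Of 3 stromal and immune markers measured, Col3a1 was called, at 8.06 ± 0.17 in cadmium arrays and 9.07 ± 0.13 in control arrays (SD, n = 3 each). Vim and Ptprc were dim and not called, with changes of 0.16 and 0.06. The summed linear signal of the 3 markers, mostly that of Col3a1, was 258 to 319 in cadmium arrays and 512 to 611 in control arrays. The part of Col3a1 in the results below was not tested.

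Of the 40 genes 4 rose and 4 fell with cadmium at a limma adjusted p under 0.05 over all genes, where 12.3% of all genes were called, 6.45% higher and 5.8% lower. The 4 that rose were Jun, Mafk, Cebpb and Klf14, and the 4 that fell were Crebzf, Creb1, Creb3l2 and Hsf2. The arrays of the groups did not overlap in 10 genes with cadmium above and in 8 with cadmium below, where the same held for 22.8% and 13.1% of all genes, 35.9% in either direction. The median change over the 40 genes was 0.05, against 0.04 over all genes. With each array centred on its median 2 of the 40 were called higher and 5 lower, against 4.42% and 8.09% of all genes, Cebpb and Klf14 losing their calls and Atf2 gaining one. Quantile normalization called the same genes, 2 higher and 5 lower, where 4.9% and 7.49% of all genes were called. Whether fewer cells that make a transcript or less of it per cell lowered a signal cannot be told apart in RNA of whole cultures.

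**Figure D1:**
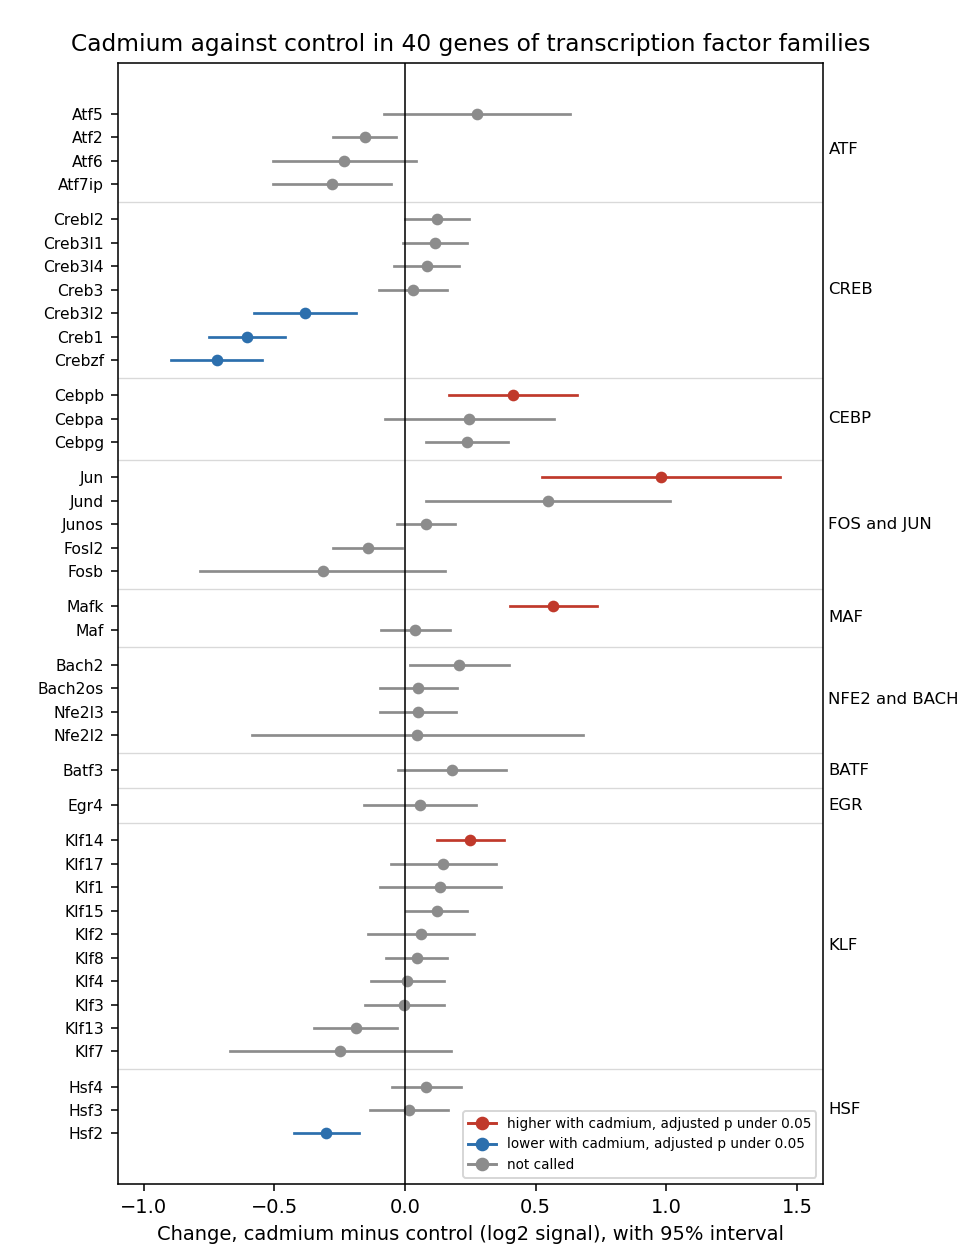
Change in each of the 40 genes (x axis, cadmium minus control, log2 signal), with its 95% interval from limma, grouped by family. Red marks the 4 genes called higher, blue the 4 called lower and grey the 32 not called. The change of Jun, 0.98, is farthest to the right and that of Crebzf, -0.72, farthest to the left.

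The bases before the transcription start are shown for 2 genes that rose and 2 that fell, so that the motifs listed below can be looked for in them. Of these motifs, the metal response element and the CArG box are not among the elements named above for these families. No KLF or C/EBP motif was searched. Sequences are from RefSeq, build GRCm38.p6, and each holds the 250 bases upstream of an annotated start, 5′ to 3′ along the gene. Of the 40 genes, 34 had such a window, matched by gene ID. The motifs searched, on both strands, were TGACGTCA (cAMP response element), TGANTCA (AP-1), TGACNNNGC (antioxidant response element core), GAANNTTC and TTCNNGAA (heat shock element cores), TGCGCNC and TGCACNC (metal response element cores), GCGTGGGCG (EGR) and the CArG box. Bases in a match are in capitals. Matches of the cAMP, AP-1 and antioxidant motifs can overlap each other.
Jun, chr4:95052223-95052472, minus strand: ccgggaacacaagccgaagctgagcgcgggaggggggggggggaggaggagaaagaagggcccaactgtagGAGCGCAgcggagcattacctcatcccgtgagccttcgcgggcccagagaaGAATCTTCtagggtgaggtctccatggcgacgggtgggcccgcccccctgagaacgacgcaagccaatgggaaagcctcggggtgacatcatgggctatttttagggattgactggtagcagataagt
Mafk, chr5:139791286-139791535, plus strand: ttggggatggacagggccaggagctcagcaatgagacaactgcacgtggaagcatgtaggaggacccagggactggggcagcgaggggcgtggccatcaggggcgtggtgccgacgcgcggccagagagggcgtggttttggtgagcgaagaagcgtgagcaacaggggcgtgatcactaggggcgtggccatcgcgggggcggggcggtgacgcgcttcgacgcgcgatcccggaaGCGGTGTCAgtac
Crebzf, chr7:90442531-90442780, plus strand: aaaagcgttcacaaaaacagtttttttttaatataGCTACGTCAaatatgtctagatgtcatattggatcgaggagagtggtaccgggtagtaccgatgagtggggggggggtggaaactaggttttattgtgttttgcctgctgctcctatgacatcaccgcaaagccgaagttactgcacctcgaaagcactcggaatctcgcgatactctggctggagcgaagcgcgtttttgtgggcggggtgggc
Creb1, chr1:64532554-64532803, plus strand: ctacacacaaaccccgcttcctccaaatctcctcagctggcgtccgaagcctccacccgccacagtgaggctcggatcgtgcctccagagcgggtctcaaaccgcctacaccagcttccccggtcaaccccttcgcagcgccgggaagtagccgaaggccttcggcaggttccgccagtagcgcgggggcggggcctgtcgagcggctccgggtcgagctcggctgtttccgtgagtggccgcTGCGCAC

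The Jun window held a heat shock element core, GAATCTTC, 121 to 128 bases before the start, and a metal response element core on the other strand. Head-to-head heat shock cores occurred in 6.69% of the 32817 windows of this length, and in 2 of the 32 factor genes with a window, Jun and Fosl2. The Mafk and Crebzf windows each held an antioxidant response element core on the reverse strand. On either strand it was found in 7 of the 32 genes and 10.2% of all windows. The Creb1 window ended in a metal response element core, a match of the form TGCGCNC that 10 of the 32 genes and 12.5% of all windows held. The cAMP response element, the AP-1 motif and the EGR motif matched 0 of the 32 genes' windows, and 1.55%, 6.75% and 0.536% of all windows. TTCNNGAA was found for Atf5 and Klf15 (7.16% of all windows), TGCACNC for Bach2 (10.4%) and the CArG box for Klf8 (1.47%). The windows of the 32 genes were richer in G and C, with a median of 66.6% against 52.4% over all windows. A match describes letters only, and the absence of a match says nothing of the factor.

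Among the AP-1 genes Jun, the subunit activated by JNK kinases, rose (gene ID 16476). Its signals were 5.62, 6.35 and 6.28 on cadmium arrays, against 5.05, 4.96 and 5.29 on control arrays. All 3 cadmium arrays lay above all control arrays, with cadmium replicate 1 the lowest of them. The change was 0.98 ± 0.19 (SE; limma adjusted p = 0.0197), and no fold is given because both means were dim. The call was lost without cadmium replicate 2, cadmium replicate 3, control replicate 1 or control replicate 2, at an adjusted p of up to 0.0767, and it was at 0.00345 without cadmium replicate 1.

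Jund, an AP-1 subunit often present in unstimulated cells, followed the same order among the cadmium arrays. It had 7.30, 7.98 and 8.08 on cadmium arrays, against 7.11, 7.24 and 7.37 on control arrays. Cadmium replicates 2 and 3 were above every control array, while replicate 1 lay within the control range. The change of 0.55 ± 0.20 (SE) did not pass (limma adjusted p = 0.119). Without cadmium replicate 1 it was 0.79 and passed (adjusted p = 0.00447), the 2 remaining cadmium arrays being set against 3 control arrays.

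Fosb, a FOS partner of JUN proteins, had 6.17, 6.92 and 6.83 on cadmium arrays, against 6.95, 7.14 and 6.77 on control arrays. Cadmium replicate 1 was the lowest of all 6 arrays and the groups overlapped, with a change of -0.31 ± 0.20 (SE; limma adjusted p = 0.339). Relative to the mean of the other 2 cadmium arrays, cadmium replicate 1 was lower by a similar amount in these genes, with offsets of -0.69 in Jun, -0.74 in Jund and -0.71 in Fosb. In Fosl2, another FOS partner, that offset was -0.06, with 6.84, 6.91 and 6.90 on cadmium arrays, against 7.07, 6.95 and 7.06 on control arrays. Its groups did not overlap, and its change of -0.14 did not pass (limma adjusted p = 0.14). Junos, the antisense gene beside Jun, changed by 0.08 ± 0.05 (SE; limma adjusted p = 0.296). An offset of over 0.3 in cadmium replicate 1, up or down, occurred in 7 of the 40 genes and in 1438 of all 18572.

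**Figure D2:**
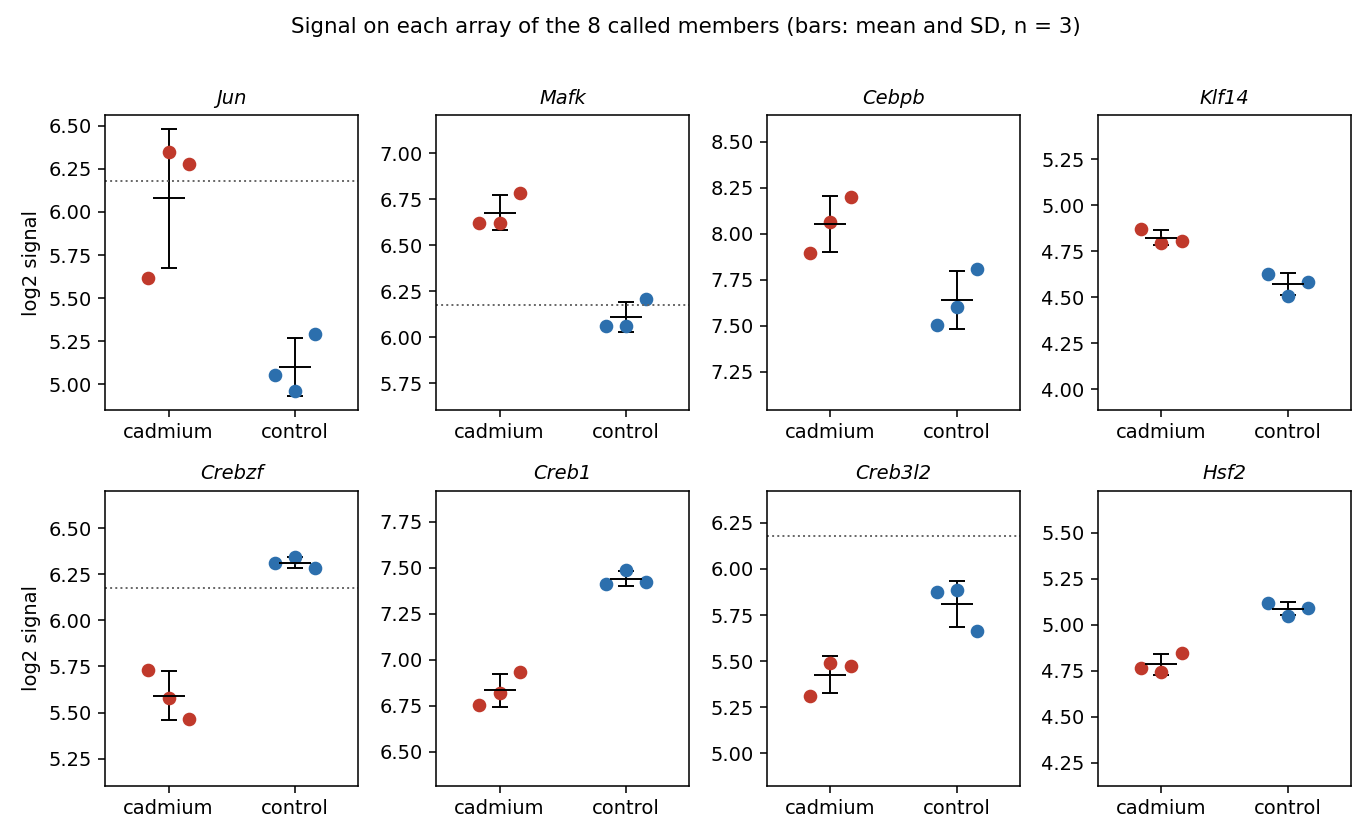
Signal on each array (y axis, log2) of the 4 genes called higher, top row, and the 4 called lower, bottom row. Points are arrays, bars are mean and SD of 3, each panel has its own y range, and the dotted line, where it falls in range, is the bound of 6.18. In every panel the 3 cadmium points lie wholly above or wholly below the 3 control points.

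Among the MAF genes Mafk rose (gene ID 17135). MAFK is a small MAF protein with no activation domain of its own, which pairs with NRF2 to activate or with BACH proteins to repress genes with antioxidant response elements. Its signals were 6.62, 6.62 and 6.78 on cadmium arrays, against 6.06, 6.06 and 6.20 on control arrays. The change was 0.57 ± 0.07 (SE; 95% interval 0.40 to 0.73; limma adjusted p = 0.00328), a level at least 1.38-fold higher with the dim control arrays raised to their own bound. Mafk passed under every other scaling, filter and variance model tried and without each array in turn, where the adjusted p was 0.00479 to 0.0209. Maf, a large MAF with an activation domain, was dim and at 3.35 ± 0.06 in cadmium arrays and 3.31 ± 0.06 in control arrays (SD, n = 3 each; limma adjusted p = 0.686).

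Of the genes for proteins that pair with small MAFs, Nfe2l2, Nfe2l3 and Bach2 were measured and not called, while Nfe2, Nfe2l1 and Bach1 were not analysed here. Nfe2l2, which encodes NRF2, a factor controlled mainly through the stability of its protein, had 7.14, 6.56 and 6.49 on cadmium arrays, against 6.39, 6.39 and 7.26 on control arrays. Cadmium replicate 1 and control replicate 3, the arrays that differed along the second component, were the 2 highest. The change was 0.05 ± 0.27 (SE), with an interval of -0.59 to 0.68 that is wide beside those of Mafk and Creb1 (limma adjusted p = 0.927). With both of those arrays left out, a setting added after the data were seen, the change was 0.13 (adjusted p = 0.167). Bach2, a repressor that pairs with small MAFs, had 5.02, 5.20 and 5.19 on cadmium arrays, against 4.88, 4.84 and 5.06 on control arrays, with a change of 0.21 ± 0.08 (SE; limma adjusted p = 0.141). The Bach2 change passed with both of those arrays left out (0.33, adjusted p = 0.0184) and with array weights (0.27, adjusted p = 0.0341). In these 2 settings 15.6% and 18.1% of all genes were called, against 12.3% as deposited. Both Bach2 means were dim. Nfe2l3, an NRF2 relative anchored in the endoplasmic reticulum, and Bach2os each changed by 0.05.

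Nfe2l2 was not alone in following those arrays. Atf5, a stress-induced factor whose translation depends on the start codons upstream of its reading frame, had 7.10, 6.80 and 6.78 on cadmium arrays, against 6.51, 6.41 and 6.94 on control arrays. Here cadmium replicate 1 and control replicate 3 were each the highest of their group, and the groups overlapped through control replicate 3. The change was 0.28 ± 0.15 (SE; limma adjusted p = 0.272), and 0.34 with both arrays left out (adjusted p = 0.0251). With both left out 15.6% of all genes were called, against 12.3% as deposited. Among the 40 genes, 2 were higher by over 0.3 in both arrays than in the other arrays of their group, Nfe2l2 and Atf5, and 0 were lower by as much in both. Over all 18572 genes these counts were 181 and 94.

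**Figure D3:**
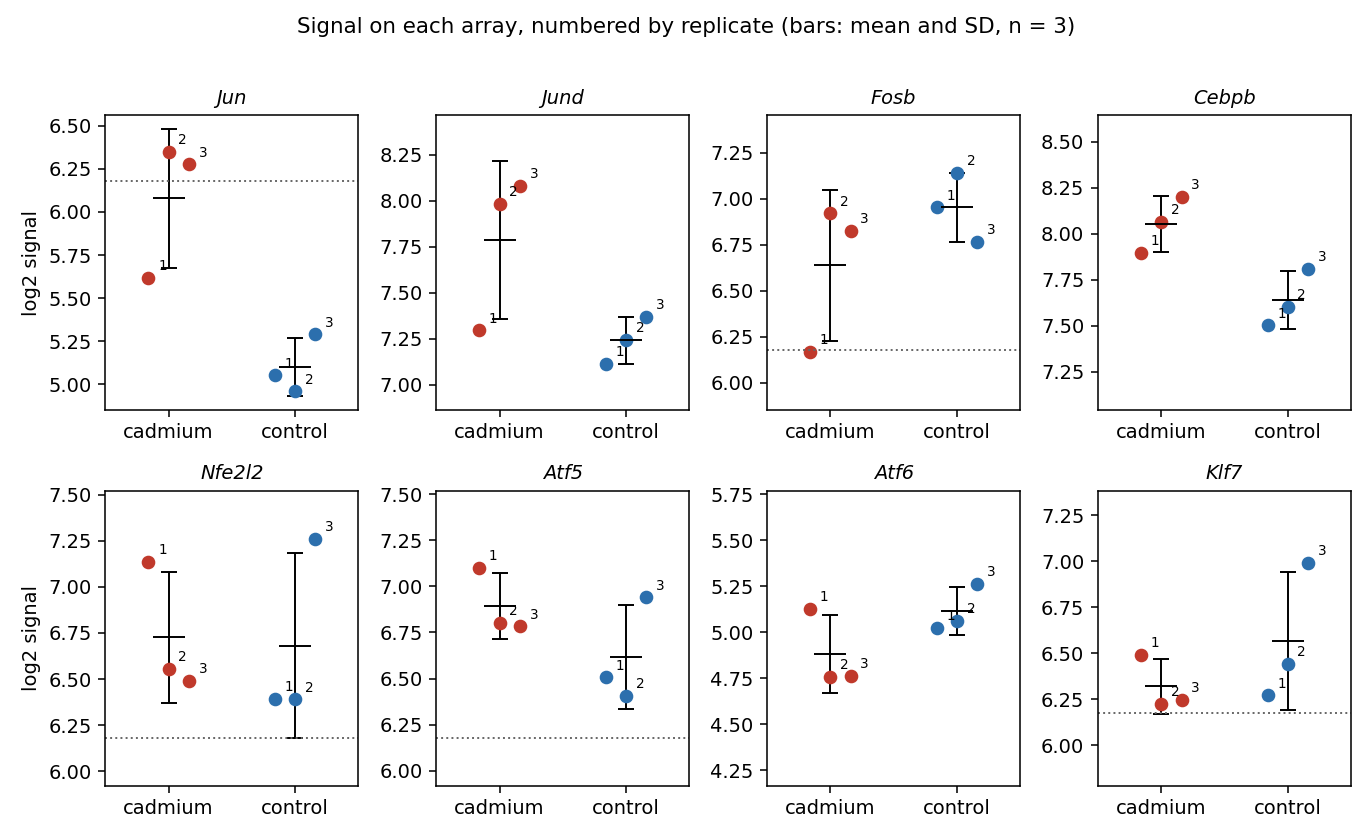
Signal on each array (y axis, log2), with the replicate number beside each point, for 4 genes of the AP-1 and C/EBP families, top row, and for Nfe2l2, Atf5, Atf6 and Klf7, bottom row. Bars are mean and SD of 3 arrays and the dotted line, where it falls in range, is the bound of 6.18. Cadmium replicate 1 is the lowest cadmium point in each top panel, and cadmium replicate 1 and control replicate 3 are the highest points of their groups in each bottom panel.

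The other genes with ATF names, Atf6, Atf2 and Atf7ip, were not called, and both means of each were dim. Atf6, a membrane-bound sensor of protein folding in the endoplasmic reticulum, had 5.13, 4.76 and 4.76 on cadmium arrays, against 5.02, 5.06 and 5.26 on control arrays. The groups overlapped because cadmium replicate 1 was above 2 of the control arrays, and the change was -0.23 ± 0.12 (SE; limma adjusted p = 0.234). Without cadmium replicate 1 the change was -0.36 (adjusted p = 0.0457). Atf2, a substrate of stress kinases, had 4.10, 4.01 and 4.02 on cadmium arrays, against 4.18, 4.21 and 4.21 on control arrays. Its groups did not overlap, and its change of -0.15 ± 0.05 (SE) missed the threshold as deposited (limma adjusted p = 0.0943) and passed with arrays centred (-0.20, adjusted p = 0.0422). Atf7ip, a partner of a histone methyltransferase, changed by -0.28 ± 0.10 (SE; limma adjusted p = 0.104), on the brighter of its 2 clusters. The other cluster had 3.10, 2.99 and 3.15 on cadmium arrays, against 2.98, 3.08 and 3.00 on control arrays, and the mean of both clusters changed by -0.11 (adjusted p = 0.311).

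Of the 3 C/EBP genes 1 was called, where 12.3% of all genes were called. All 3 had a positive change, as did 11606 of all 18572 genes. Cebpb, a factor of stress and acute phase responses that is also a partner of ATF4, rose (gene ID 12608). It had 7.89, 8.06 and 8.20 on cadmium arrays, against 7.50, 7.60 and 7.81 on control arrays. The groups did not overlap, cadmium replicate 1 and control replicate 3 lying closest. The change was 0.41 ± 0.10 (SE; limma adjusted p = 0.0455), which is 1.33-fold. The call was lost with arrays centred (adjusted p = 0.0762), after quantile normalization (0.0798), with a trended and robust variance model (0.0612) and without cadmium replicate 2, cadmium replicate 3, control replicate 1 or control replicate 2, at up to 0.137. Cebpg, a partner of ATF4 with no activation domain, had 5.34, 5.36 and 5.37 on cadmium arrays, against 5.04, 5.06 and 5.25 on control arrays. Its groups did not overlap either, with a change of 0.24 ± 0.07 (SE; limma adjusted p = 0.064), and without control replicate 3 it passed (0.30, adjusted p = 0.0174). Both Cebpg means were dim. Cebpa, which drives differentiation in liver, fat and myeloid cells, was dim and changed by 0.25 ± 0.14 (SE; limma adjusted p = 0.281).

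Of the 7 CREB genes 3 fell and 0 rose, where 5.8% of all genes were called lower and 6.45% higher. Crebzf, also called Zhangfei, a bZIP protein that binds host cell factor, had the most negative change of the 40 (gene ID 233490). It had 5.73, 5.58 and 5.46 on cadmium arrays, against 6.31, 6.35 and 6.28 on control arrays. The control arrays lay close together and all above the cadmium arrays. The change was -0.72 ± 0.07 (SE; limma adjusted p = 0.0018), and the level was at least 1.11-fold lower with cadmium, since the cadmium mean was dim.

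Creb1, the widely expressed factor that mediates responses to cAMP, fell as well (gene ID 12912). It had 6.75, 6.82 and 6.93 on cadmium arrays, against 7.41, 7.49 and 7.42 on control arrays. Each cadmium array was below each control array and both means were above the bound. The change was -0.60 ± 0.06 (SE; 95% interval -0.75 to -0.46; limma adjusted p = 0.0018), a 1.52-fold lower level. Crebzf and Creb1 kept their calls without each array in turn, at an adjusted p of up to 0.0132 and 0.0129.

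Creb3l2, a membrane-bound factor of the endoplasmic reticulum that is released by cleavage in the Golgi and induces secretory pathway genes, fell with both means dim (gene ID 208647). It had 5.31, 5.49 and 5.48 on cadmium arrays, against 5.88, 5.89 and 5.66 on control arrays. The groups did not overlap, and the change was -0.38 ± 0.08 (SE; limma adjusted p = 0.0272). The call held without control replicate 3 (adjusted p = 0.0145) and was lost without any other single array, at up to 0.099. Its relatives Creb3, Creb3l1 and Creb3l4, which are released from membranes in the same way, had changes of 0.03, 0.12 and 0.08, and Crebl2, a small CREB-like protein, had 0.12. None of these 4 passed, at limma adjusted p of 0.175 to 0.765, and both means of each were dim. For 3 of them, Creb3l1, Creb3l4 and Crebl2, the cadmium arrays lay above the control arrays, as for 22.8% of all genes. With arrays centred the changes of these 3 were 0.07, 0.03 and 0.07.

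Of the 3 heat shock factor genes 1 was called, where 12.3% of all genes were called. Hsf2, which can form mixed trimers with HSF1, fell (gene ID 15500). It had 4.77, 4.74 and 4.85 on cadmium arrays, against 5.12, 5.05 and 5.09 on control arrays. The groups did not overlap, both means were dim and the change was -0.30 ± 0.05 (SE; limma adjusted p = 0.0129). The call was lost without cadmium replicate 2 or control replicate 1, at an adjusted p of up to 0.0569. Hsf4, known for its role in the lens, was at 5.66 ± 0.05 in cadmium arrays and 5.58 ± 0.06 in control arrays, and Hsf3 was at 1.47 ± 0.04 and 1.46 ± 0.10 in the same order (SD, n = 3 each), neither of them called by limma.

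Among the 10 KLF genes 1 was called, where 12.3% of all genes were called. Klf14, an imprinted gene known for its influence on metabolic genes in fat, rose (gene ID 619665). It had 4.87, 4.79 and 4.80 on cadmium arrays, against 4.63, 4.51 and 4.58 on control arrays. The groups did not overlap and both means were dim. The change was 0.25 ± 0.05 (SE; limma adjusted p = 0.0285), and the call was lost without any 1 of the 6 arrays, at 0.0545 to 0.102, and with arrays centred, at 0.0545.

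Klf15, a regulator of glucose and amino acid metabolism, had 6.89, 6.95 and 6.98 on cadmium arrays, against 6.83, 6.82 and 6.80 on control arrays. Its groups did not overlap and its change of 0.12 ± 0.05 (SE) did not pass (limma adjusted p = 0.157). Klf13, studied in T cells and heart, had 5.15, 5.30 and 5.35 on cadmium arrays, against 5.45, 5.41 and 5.50 on control arrays, and its change of -0.19 ± 0.07 (SE) did not pass either (limma adjusted p = 0.116). Klf7, studied mainly in neurons, had 6.49, 6.22 and 6.25 on cadmium arrays, against 6.27, 6.44 and 6.99 on control arrays. Control replicate 3 stood above the other 5 arrays, and the groups overlapped (change -0.25 ± 0.18 (SE); limma adjusted p = 0.4).

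Klf4 and Klf2, which restrain proliferation in many cell types and respond quickly to stress or flow, were dim and not called. Klf4 was at 5.31 ± 0.08 in cadmium arrays and 5.30 ± 0.03 in control arrays (SD, n = 3 each), and the interval of its change was -0.13 to 0.15. Klf2 was at 5.93 ± 0.02 in cadmium arrays and 5.86 ± 0.17 in control arrays, with an interval of -0.14 to 0.26. The repressors Klf3 and Klf8, the erythroid factor Klf1 and the embryonic factor Klf17 were dim, with changes between -0.003 and 0.15, and none was called.

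Egr4 was the only EGR gene measured, a zinc finger factor of the early response to neuronal stimulation. It had 6.23, 6.47 and 6.52 on cadmium arrays, against 6.36, 6.43 and 6.24 on control arrays. The arrays overlapped, and the change was 0.06 ± 0.09 (SE; 95% interval -0.16 to 0.27; limma adjusted p = 0.714). Batf3, an AP-1 family member of dendritic cells, was dim, with 5.94, 5.87 and 6.15 on cadmium arrays against 5.91, 5.72 and 5.78 on control arrays. Its change of 0.18 ± 0.09 (SE) did not pass (limma adjusted p = 0.226).

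**Figure D4:**
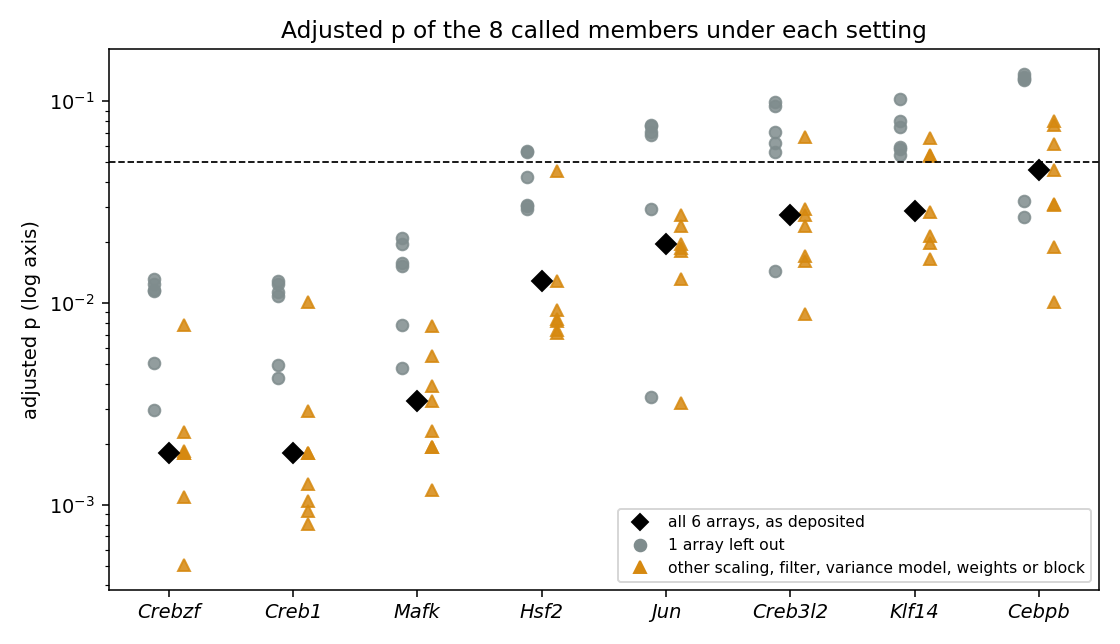
Adjusted p (y axis, log scale) of the 8 called genes with all arrays as deposited (black diamonds), with 1 array left out (grey circles) and under other scalings, filters, variance models, weights or the replicate block (orange triangles). The dashed line is 0.05. Every point of Crebzf, Creb1 and Mafk lies below the line, while Hsf2, Jun, Creb3l2, Klf14 and Cebpb have points above it.

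Genes around these factors were counted from lists chosen with earlier results of these data known. For comparison, 6.45% of all genes were called higher and 5.8% lower. Of 2 bZIP genes outside the rule that were measured, Atf3 rose and Dbp fell. Their changes were 1.05 ± 0.12 and -0.52 ± 0.07 (SE; limma adjusted p = 0.00249 and 0.00532), and the control mean of Atf3 was dim. Of 8 early response genes outside the families that were measured, 4 rose and 0 fell, among them Zfp36, which speeds the decay of AU-rich messages, at 5.78 ± 0.36 in cadmium arrays and 5.04 ± 0.08 in control arrays (SD, n = 3 each; limma adjusted p = 0.0303). Both Zfp36 means were dim, and its call held in 1 of the 6 fits that leave out an array, with an adjusted p of up to 0.106. Of 3 Sp family genes, relatives of the KLF genes, Sp3 fell to 6.37 ± 0.10 in cadmium arrays, against 6.99 ± 0.10 in control arrays (limma adjusted p = 0.00301). Of the 3 EGR regulators and co-repressors measured, Elk1, Elk4 and Nab1, 0 were called by limma.

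Of 14 measured regulators of the bZIP and heat shock factors 4 fell and 0 rose, where 5.8% of all genes were called lower. Mbtps1, a protease that cleaves ATF6 and the membrane-bound CREB factors, fell to 5.84 ± 0.15 in cadmium arrays, against 6.51 ± 0.12 in control arrays (SD, n = 3 each; limma adjusted p = 0.00591). The cadmium mean of Mbtps1 was dim. Eif2ak3 and Eif2ak4, kinases upstream of ATF4 translation, fell by 0.55 and 0.53 on the log2 scale with both means dim. Cul3, the scaffold of the ligase that degrades NRF2, fell to 8.11 ± 0.06 in cadmium arrays, against 8.49 ± 0.15 in control arrays (limma adjusted p = 0.0279). The Cul3 call held in 3 of the 6 fits that leave out an array, with an adjusted p of up to 0.0975. Keap1, the adaptor of that ligase, was at 5.51 ± 0.02 in cadmium arrays and 5.52 ± 0.04 in control arrays. The targets of NRF2 and HSF1 were called higher in 7 of 7 and 8 of 8 measured genes, with median changes of 0.67 and 1.42. The call of Hspa8, an HSF1 target, held in 1 of the 6 fits that leave out an array. That of Ftl1, an NRF2 target, held in 4, and those of the other targets of NRF2 and HSF1 in all 6. Of 7 targets of ATF4 and CHOP 2 were called higher and 0 lower, with a median change of 0.49. The share of all genes called higher was 6.45%. Both means were dim for 3 of the 7 NRF2 targets, 0 of the 8 HSF1 targets and 3 of the 7 ATF4 and CHOP targets. The targets share their control arrays with the factor genes, so the 2 sets of changes are given side by side only.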

How the data were processed

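Total RNA of 6 NIT-1 cultures was measured on arrays, 3 per group, with groups and replicate numbers from the sample titles. The authors deposited 1 value per transcript cluster and array. The values the authors deposited are taken as log2 from their range. Their log base, background correction and normalization, and the software, are not stated in the labels or file headers. A fold therefore holds only if the base is 2. Number of arrays, not depth, limits precision.

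Clusters were named by the platform annotation where it gave 1 distinct symbol (18801 of 39746 clusters, with 1344 having several and 19601 none), and symbols were updated through RefSeq (GRCm38.p6). The brightest cluster stood for a gene. Antisense and host genes cannot be told apart if strand was not kept. Values shared exactly with another gene occurred in 0 of the 40. The number of columns without a sample was 0.

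Genes were tested with limma 3.58.1 in R 4.3.3 (group only, two-sided, Benjamini-Hochberg over 18572 genes, threshold 0.05), and the fit was tested on simulated data. The simulated noise was independent between genes and arrays, so arrays that stand apart, as here, were not part of that test. The genes, lists and tests were chosen with earlier results of these data known. Named are all called genes, in each family the largest change and highest level among the rest, and a fixed set of stress factors. Alternatives changed scaling, filters, cluster choice, variance model, weights, threshold, the replicate block and the arrays used. Figures were drawn with matplotlib 3.10.9.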

Additional observations from a re-analysis of the deposited data

Results flagged for a closer look

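The cluster annotated with both Junb and Prdx2 was left out of the comparisons because it carries 2 symbols, and every cadmium array lay above every control array on it. Its signals were 5.34, 5.58 and 5.36 on cadmium arrays, against 5.14, 5.19 and 5.14 on control arrays. The change was 0.27 ± 0.08 (SE; limma adjusted p = 0.0994 over 39746 clusters), with both means below the bound. Junb, an AP-1 subunit, and Prdx2, a peroxiredoxin, cannot be told apart in it.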

How the results depend on the processing

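Of the 8 calls, those of Crebzf, Creb1 and Mafk held in every alternative that tested them, and no called gene changed sign in any. Over all genes 1198 were higher and 1078 lower. The 40 genes gave 2 higher calls with arrays centred and after quantile normalization, and the higher share of all calls was 35.3% and 39.5% there, against 52.6% as deposited. A filter at the bound left 11 of the 40, with 2 higher and 1 lower, and 410 and 296 over all genes. Array weights gave 1847 higher over all genes, where 18.1% were called in either direction, and 7 higher of the 40, adding Bach2, Cebpg and Jund. Deviations of same-numbered arrays from their group means correlated at -0.108, 0.053 and -0.111, against 0.164 for cadmium replicate 1 and control replicate 3. With 3 arrays per group, whose deviations are tied to each other, this cannot show whether the numbers pair the arrays. The replicate block gave 729 higher and 643 lower over all genes, and 3 and 3 of the 40, losing Klf14 and Creb3l2. At an adjusted p under 0.01 these were 444 and 415, and 1 and 2. Leaving out 1 array gave 594 to 1312 higher and 531 to 1040 lower over all genes, and 1 to 4 higher and 2 to 4 lower of the 40. The low counts came without cadmium replicate 2 or 3 or control replicate 1 or 2, with 3 or 4 calls among the 40. Without cadmium replicate 1 and control replicate 3 together, a setting added after the data were seen, 7 of the 40 were higher and 5 lower, where 15.6% of all genes were called (1560 higher and 1334 lower). With centring as well these were 7 and 7, where 15.5% of all genes were called (1233 higher and 1641 lower). The causes were not tested. Signal near background limits the 28 genes with both means dim.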
